A study of Mus musculus with 11 samples.

Results

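Retained-intron transcripts are annotated RNA models of a gene that still hold intronic sequence which the coding transcripts of that gene splice out. They were followed in KP1, a mouse small cell lung cancer (SCLC) cell line with mutant Rb and p53, with and without irradiation. The members were the transcripts that GENCODE M21 types as retained_intron and that held a mean of at least 10 estimated reads over the 5 bulk RNA sequencing libraries. This rule kept 7119 of the 20611 retained_intron transcripts and of the 113116 transcripts of all types in the files, and 4158 retained_intron transcripts held no read in any library. The 7119 members lay in 4289 genes, of which 2580 had 1 member and 1 had 9, and 7111 members belonged to protein-coding genes. Just inside the limit, 1700092M07Rik-202 and Sgk3-206 had a mean of 10 reads, and just outside it, Vmn1r46-204 had 9.99 and Wdr45b-203 held 37.7 reads in control replicate 2 and 2.04 to 4.01 in the other libraries.

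Both groups were KP1 cells grown in culture. The control group was 2 untreated cultures, replicates 2 and 3, and the irradiated group was 3 cultures, replicates 1 to 3, given 5 Gy and collected at 24 h. Because a single line was used, the replicates measure the spread between cultures or libraries of KP1 and not between tumours, and the labels do not say whether the cultures were grown separately. Control libraries summed to 31036317 and 26432466 estimated reads and irradiated libraries to 24469945, 21185956 and 27243557. Members held 688030 and 652394 of these reads in the controls and 285318, 348499 and 396369 in the irradiated libraries. All 8 neuroendocrine SCLC markers were above 1 TPM in every library, with a summed level of 2598 to 2792 TPM. TPM is an abundance per transcript length, scaled to the same total in each library.

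Introns are normally removed in the nucleus while the transcript is being made or soon after. An RNA that keeps one is usually held in the nucleus, where it can be spliced later or degraded, or it reaches the cytoplasm and is commonly destroyed by nonsense-mediated decay. Introns that stay in otherwise finished, polyadenylated nuclear RNA are called detained introns, and genes of SR proteins and of the CLK kinases that phosphorylate them are well-known carriers. A retained-intron model shares most of its exons with the coding transcripts, so that its read number is an estimate which rests on its own intronic bases.

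The intron content of the members was read from the annotation. Of 7119 members, 2828 (39.7%) held at least 1 whole intron of a coding transcript, with 1904 holding exactly 1, 924 holding 2 or more and a maximum of 11. A further 4271 held only part of an intron, and 20 overlapped none. The median member had 494 bases, or 39.7% of its length, outside the exons of its gene's transcripts of other types. These own bases can be shared with other retained-intron transcripts of the gene, and 371 members had fewer than 50 of them. The 3892 distinct introns held whole had a median length of 316.5 bases (quartiles 127 and 811). It was 1188 bases (quartiles 391 and 2958) for the 63142 introns of coding transcripts of the same genes. Of overlapping introns held by a member only the shortest was counted, while the larger set kept overlapping introns. The larger set was also limited to coding transcripts with a mean of at least 10 reads. The median GC content of the held introns was 50.8%, against 53.03% in the rest of the transcripts. Of the 3892 introns, 3809 (97.9%) began with GT and ended with AG, and 45 began with GC and ended with AG.

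The windows below show both ends of introns held whole by members that the results return to, as 10 exonic and 20 intronic bases at the 5′ end of the intron and 20 intronic and 10 exonic bases at its 3′ end. Capitals mark the 2 terminal bases of the intron. They were read from GENCODE M21 transcripts on GRCm38, 5′ to 3′ on the strand of the gene. Rbm5-219, whose share of its gene was lower after irradiation, held chr9:107756993-107759775 (minus strand, 2783 bases) and chr9:107759850-107760321 (minus strand, 472 bases). Cpsf4-203, also lower, held chr5:145177303-145178757 (plus strand, 1455 bases). Ercc1-202, whose groups overlapped, held chr7:19355173-19355292 (plus strand, 120 bases). Prelid1-202, which was among the members with the most reads and higher in abundance, held chr13:55324445-55324526 (plus strand, 82 bases), and Ifrd1-210, without reads in the controls, held chr12:40217243-40217377 (minus strand, 135 bases).
Rbm5-219, intron of 2783 bases, 5′ end: agccaatcagGTtgcttcactcaccaagtc
Rbm5-219, intron of 2783 bases, 3′ end: attgcttcttttttttacAGaaaaaattgg
Rbm5-219, intron of 472 bases, 5′ end: aggaaaacagGTgagagcttgcttggttcc
Rbm5-219, intron of 472 bases, 3′ end: tatctgaatgctgtctctAGgtgtaagccg
Cpsf4-203, intron of 1455 bases, 5′ end: tccaacaaagGTattgtaccctgctgcctc
Cpsf4-203, intron of 1455 bases, 3′ end: tgttgtgtaactctttccAGcaaagtaaca
Ercc1-202, intron of 120 bases, 5′ end: tacatttggaGTaagaggtcccctgggcat
Ercc1-202, intron of 120 bases, 3′ end: accttgagtctacctctcAGtccctggaac
Prelid1-202, intron of 82 bases, 5′ end: agctgtccagGTaagaggctgcagggcggg
Prelid1-202, intron of 82 bases, 3′ end: ccttctccctctcctgccAGgaatttggtc
Ifrd1-210, intron of 135 bases, 5′ end: gcggaggatgGTaggagttttaaatgtata
Ifrd1-210, intron of 135 bases, 3′ end: tgttggtttctattctgtAGggccagaagt

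A small class of introns is removed by the minor spliceosome, which contains the U12 small nuclear RNA and is known to work slowly. Its introns often begin with GTATCCTT or ATATCCTT, and this motif was searched at the first base of each held intron, on the strand of the gene only. It began 25 of the 3892 introns held by members (0.642%) and 34 of the 7401 introns held by all retained_intron transcripts in the files (0.459%). Capitals mark the motif at the 5′ end and the 2 last intronic bases at the 3′ end. E2f6-202 held such an intron at chr12:16820385-16822092 (plus strand), Prim1-202 at chr10:128022973-128023579 (plus strand), and Derl2-205 at chr11:71013639-71014549 (minus strand) and chr11:71014644-71015726 (minus strand). Tcea2-206 held one at chr2:181686247-181686597 (plus strand).
E2f6-202, 5′ end: aaaatgaaagATATCCTTccatcagtacct
E2f6-202, 3′ end: gatccttgaccaggtctcACactagcgtat
Prim1-202, 5′ end: gttcctgagaATATCCTTtcctgcggttac
Prim1-202, 3′ end: catgctccttaatgaagcATcaccaattca
Derl2-205, intron of 911 bases, 5′ end: tttaatgactGTATCCTTcaacaaatagca
Derl2-205, intron of 911 bases, 3′ end: cccttaatgccctttgctAGctctttggtt
Derl2-205, intron of 1083 bases, 5′ end: tgatttttctGTATCCTTtattaaatagag
Derl2-205, intron of 1083 bases, 3′ end: tccttaacttgaaacttaAGataccgttat
Tcea2-206, 5′ end: atcgaggagtATATCCTTtgtacagggtat
Tcea2-206, 3′ end: gggtccttaaacacctgcACgcatcttcct

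The first comparison asked what share of each library came from retained-intron transcripts. Members took 2.22% and 2.47% of the reads of the controls, and 1.17%, 1.65% and 1.45% of those of the irradiated libraries. The mean was 2.34% ± 0.178 (SD, n = 2) in control and 1.42% ± 0.241 (SD, n = 3) in irradiated cells, a ratio of 0.607, and every irradiated library was below both controls. On the TPM scale the members summed to 4.31% and 4.39% in control and to 2.08%, 2.67% and 2.58% in irradiated cells, a ratio of 0.562. The difference exceeded the spread between replicates on both scales, but an exact two-sided permutation test of 2 against 3 libraries cannot give a p below 0.1.

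The share was also taken within the members' own genes. Members made up 9.57% and 9.82% of the TPM of their genes in control and 4.73%, 6.06% and 5.97% in irradiated cells. The lower share was therefore present among transcripts of the same genes. Irradiated replicate 1 had the lowest value of all libraries on each of these scales. Without it, the difference in the share of reads went from -0.921 to -0.793 percentage points.

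**Figure D1:**
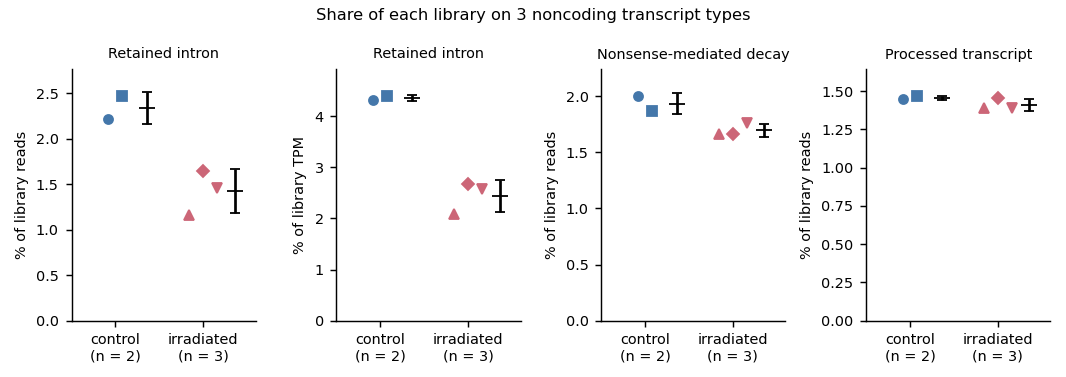
Percent of the reads or of the TPM of each library on retained-intron transcripts, nonsense-mediated decay transcripts and processed transcripts, all with a mean of at least 10 reads. Each point is a library, blue for control and red for irradiated, and the black bars give the mean and SD. The irradiated libraries lie at 1.17% to 1.65% of reads on retained-intron transcripts and the controls at 2.22% and 2.47%.

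Other types of noncoding transcript of mostly coding genes were measured in the same way. Transcripts typed as nonsense_mediated_decay, which carry a premature stop, took 1.9985% and 1.87% of reads in control and 1.66%, 1.67% and 1.76% in irradiated cells, a ratio of 0.876. Processed transcripts, which have no open reading frame, took 1.45% and 1.47% in control and 1.39%, 1.45% and 1.39% in irradiated cells, and these groups overlapped. On the TPM scale processed transcripts took 5.68% and 4.95% in control and 4.43%, 4.24% and 4.59% in irradiated cells, a ratio of 0.832, and every irradiated library was below both controls. Coding transcripts took 92.8% to 93.0% in control and 93.9% to 94.5% in irradiated cells.

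Other measures of the libraries were set beside the retained-intron share. Reads on olfactory and vomeronasal receptor genes, which sensory neurons express, came to 999 and 768 RPM (reads scaled to the same library total) in control and 346, 374 and 473 RPM in irradiated cells. Summed levels of 5 macrophage and leukocyte markers were 4.55 and 6.91 TPM in control and 1.18 to 1.62 TPM in irradiated cells, and those of 3 endothelial markers were 1.55 and 1.28 TPM against 0.314 to 0.524 TPM. No macrophage, leukocyte or endothelial marker was above 1 TPM in every library, and none was at 0 in every library. The 5 fibroblast markers summed to 56.8 and 67.4 TPM in control and 36.7 to 51.8 TPM in irradiated cells, with 1 above 1 TPM in every library and 1 at 0 in all. The 2 T cell markers summed to 0.857 to 1.15 TPM in control and 0.233 to 1.38 TPM in irradiated cells. In bulk RNA, fewer cells of a type and less RNA per cell cannot be told apart. Histone cluster genes, which are expressed in S phase, went the other way, with 124 and 113 RPM in control and 228, 155 and 142 RPM in irradiated cells. Mitochondrially encoded genes (8233 to 20272 RPM) and processed pseudogenes (4768 to 5901 RPM) overlapped between the groups. The part of these measures in the retained-intron result was not tested.

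Transcript length differed between the libraries as well. With each transcript weighted by its reads, mean length came to 5463 and 4729 bases for the controls and to 3715, 3625 and 3998 bases after irradiation. The share of reads on members was therefore taken within 10 bins of transcript length with equal numbers of transcripts. In all 10 bins, every irradiated library was below both controls. From 676 to 861 bases, members held 11.4% and 10.0% of the reads of the bin in control and 3.97%, 4.68% and 5.06% in irradiated cells. From 2813 to 3365 bases they held 3.35% and 3.58% in control and 1.64%, 2.15% and 2.08% in irradiated cells. Ratios ran from 0.426 to 0.565 in bins 1 to 9 and reached 0.747 in the bin of the longest transcripts, which held 215 members. Averaged over the bins with fixed weights, the share was 2.60% and 2.69% in control and 1.10%, 1.52% and 1.42% in irradiated cells, a ratio of 0.510.

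**Figure D2:**
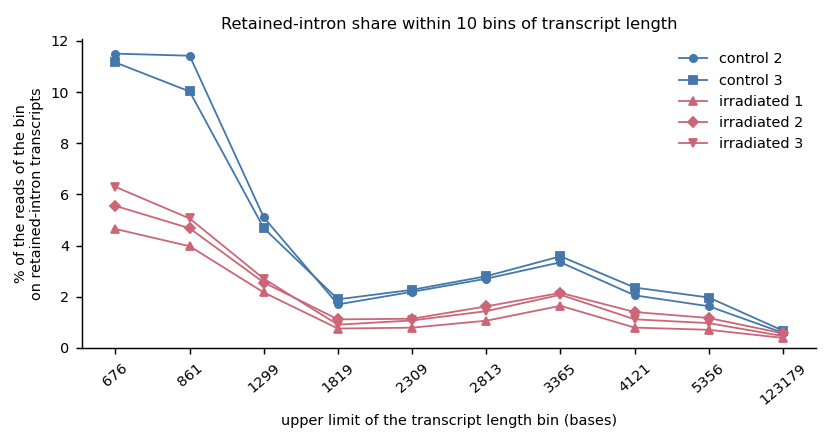
Percent of the reads of each of 10 transcript length bins that fell on retained-intron transcripts, with the upper limit of each bin in bases on the horizontal axis and 1 line per library. Control lines (blue) lie above irradiated lines (red) in every bin, for example at 10.0% and 11.4% against 3.97% to 5.06% in the second bin.

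The second comparison took each transcript's share of its gene. A member's TPM was set over the summed TPM of the other transcripts of the gene, and the log2 ratio was compared with limma over 36145 transcripts of all types, 7107 of them members. The median member held 4.08% and 4.96% of its gene's TPM in control and 0.947%, 2.36% and 2.09% in irradiated cells. The number of members with no reads was 836 and 285 in control and 1232, 448 and 572 in irradiated cells, so that the libraries of each group differed widely. The log2 ratio was lower after irradiation for 5509 of 7107 members (77.5%), against 45.7% of transcripts of other types. The median change was -1.05 for members and 0.11 for the other types.

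Few single transcripts passed the test. At an adjusted p under 0.05 (limma, Benjamini-Hochberg), 3 members were lower and 1 was higher, where 0.0526% and 0.0941% of all transcripts were called. At an unadjusted p under 0.05, 1182 members (16.6%) were lower and 94 (1.32%) were higher, against 7.16% and 6.19% of all transcripts. Every irradiated library was below both controls for 3206 members (45.1%) and above both for 268 (3.77%), where the whole table gave 20.2% and 15.6%. Members could pass the read limit through their control level alone. Of the 4541 that held a mean of at least 10 reads in each group, 3339 (73.5%) were below zero, with a median of -0.77. Of the 28936 transcripts of all types that met that limit, 48.5% were below zero. Every irradiated library was below both controls for 1771 (39%) of the 4541 members and above both for 159 (3.50%). The values for all transcripts under that limit were 16.5% and 16.4%.

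The unadjusted counts moved with the libraries used. Members lower at an unadjusted p under 0.05 (limma) numbered 678, 859 and 765 without irradiated replicate 1, 2 and 3. In the same fits 80, 61 and 72 members were higher. Over all 36145 transcripts these fits gave 1767, 1945 and 1922 lower and 1577, 1575 and 1588 higher. None of these fits left a transcript past the adjusted threshold. With a lone control, the median change of members was -1.24 without control replicate 2 and -1.03 without control replicate 3.

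**Figure D3:**
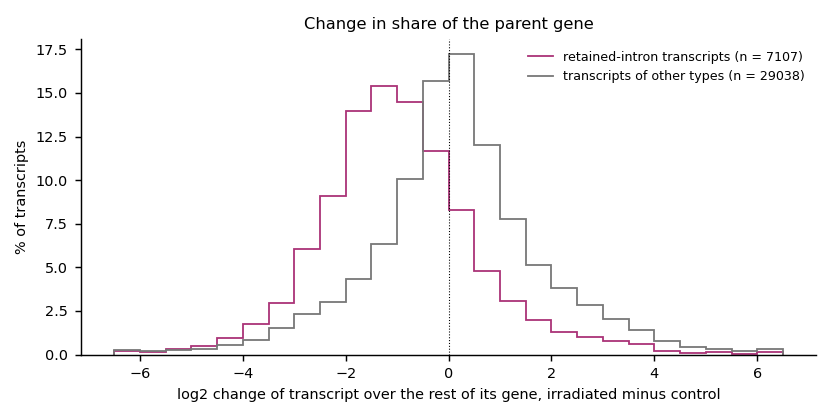
Percent of transcripts by log2 change of their level relative to the rest of the gene, irradiated minus control, for 7107 retained-intron transcripts and 29038 transcripts of other types. The outermost steps hold all more extreme values, the dotted line marks no change, and the median is -1.05 for retained-intron transcripts and 0.11 for the other types.

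The 4 members past the adjusted threshold had few bases of their own. Ptbp1-214, a model of the gene of the splicing repressor PTBP1, held 13.2% and 8.06% of its gene in control and no reads in the irradiated libraries. Its log2 change was -8.71 with an SE of 0.73 and an adjusted p of 0.0494 (limma), and all of its bases also lie in exons of other transcripts. Its 618 and 324 reads in control put it at least 114-fold lower after irradiation, taking 3 reads per library as the floor. Slc25a1-202, of the mitochondrial citrate carrier gene, held 28.6% and 21.9% in control and none in irradiated cells, with 51 own bases. Ky-202 held 35.7% and 35.8% in control and none in irradiated cells, with 42 own bases and 44.1 and 27.2 reads. Mrpl58-208, of a mitochondrial ribosomal protein gene, held none in control and 16.9%, 15.1% and 17.1% in irradiated cells, with 89 own bases. The last 3 of these were chosen after their values were seen. Each of the 4 rested on libraries at 0 in 1 group.

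The third comparison asked whether the level of each member differed, irrespective of its gene. With edgeR's quasi-likelihood test on 38629 transcripts, no transcript passed an adjusted p under 0.05 (0% of all), and the common dispersion was 0.635. At an unadjusted p under 0.05, 838 members (11.8%) were lower and 122 (1.71%) were higher, against 8.30% and 12.4% of all transcripts. The fold change was below zero for 5668 members (79.6%), with a median log2 change of -1.11 against -0.05 over all transcripts. The median was -1.05 with an offset for transcript length. Members could pass the read limit here too through their control level alone. With a mean of at least 10 reads in each group, 3469 of 4546 members were below zero, with a median of -0.77. Of all 31053 transcripts under that limit, 15667 were below zero, with a median of -0.01. DESeq2 called 550 members lower (7.73%) and 115 higher (1.62%) at an adjusted p under 0.05, where it called 6.10% and 10.6% of all transcripts. Members lower at an unadjusted p under 0.05 (edgeR) numbered 635, 643 and 534 without irradiated replicate 1, 2 and 3. In the same fits 94, 76 and 99 members were higher. Over all 38629 transcripts these fits gave 2548, 2287 and 2554 lower and 3620, 3307 and 3992 higher. With a lone control, the median log2 change of members was -1.14 without control replicate 2 and -0.86 without control replicate 3.

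Mean reads set the limit for members, so the 10 members with the most reads are given as a description. They took 0.199% of TPM in both controls and 0.188%, 0.207% and 0.198% in irradiated cells, and these groups overlapped. As a percentage of reads they took 0.179% and 0.168% in control and 0.152%, 0.147% and 0.160% in irradiated cells, and every irradiated library was below both controls. Ncl-202, of the gene of the nucleolar protein nucleolin, had the most reads, with 26245 and 20618 in control and 16095, 9910 and 17357 in irradiated libraries. Its share of its gene was 69.9% and 74.6% in control and 79.3%, 74.99% and 76.0% in irradiated cells, so that the share was slightly higher in all irradiated libraries while its level was lower. Prelid1-202, of a mitochondrial lipid transfer protein gene, had 132 and 126 TPM in control and 221, 215 and 214 TPM in irradiated cells. Its log2 change in level was 1.24 with an SE of 0.12 (edgeR adjusted p = 0.0934), and its share was 71.3% and 64.0% against 72.7%, 73.3% and 74.1%. It holds 1 intron of 82 bases, and it has 82 own bases.

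The remaining members with the most reads pointed in different ways. Eif5b-202, of the translation initiation factor eIF5B gene, had a share of 46.0% and 34.5% in control and 27.2%, 20.8% and 28.2% in irradiated cells. Ddx39b-204, of the RNA helicase and mRNA export factor gene, had 22.6% and 25.5% against 8.63%, 18.4% and 16.2%. Both were below the controls in every irradiated library. Rps26-202, of a small ribosomal subunit protein gene, had 12.1% and 17.7% against 19.8%, 28.7% and 17.7%, just above the controls at its lowest. Lars2-205, of the mitochondrial leucyl-tRNA synthetase gene, had 20.7% and 25.7% against 30.5%, 30.97% and 29.0%, and was higher in every irradiated library. Psip1-206, Tmed7-202, Tmed10-202 and Smarca5-202 overlapped between the groups in share. None of these had an adjusted p under 0.05 in either test.

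The members with the smallest p in each direction were taken by rule. Sin3a-203, Nfkb1-202, Nup188-204 and Atg16l1-208 had 72.55 to 493 reads in the controls and none in any irradiated library. With a floor of 3 reads per library they were at least 47.9-fold, 36.8-fold, 80.4-fold and 30.4-fold lower in RPM, and their adjusted p for the share was 0.0614 to 0.0888 (limma). They had 51 to 203 own bases. Wnk1-225 and Prune2-204 differed from these in lying almost wholly outside exons of other transcript types, with 97.0% and 98.9% own bases. Wnk1-225, in the gene of the kinase WNK1, held 238 and 209 reads in control and 6, 9 and 12 in irradiated libraries. Its log2 change in level was -4.25 with an SE of 0.54 (edgeR adjusted p = 0.0934). Prune2-204 held 289 and 226 reads in control and 26, 27 and 33 in irradiated libraries, a log2 change of -2.79 with an SE of 0.42 (edgeR adjusted p = 0.0934).

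Fewer members went the other way. Ifrd1-210, in the gene of a stress-responsive transcriptional coregulator, had no reads in control and 116, 44.5 and 98.55 reads in irradiated libraries, at least 30.7-fold higher. Saal1-204 was present in all libraries and held 16.5% and 22.0% of its gene in control and 52.6%, 53.3% and 35.3% in irradiated cells. Its log2 change in share was 1.88 with an SE of 0.49 (limma adjusted p = 0.293). Pidd1-208, in the gene of the p53-induced death domain protein, held 1.10% and 0% in control and 8.86%, 3.70% and 9.28% in irradiated cells, with only 77 own bases. Mum1-210 and Fbxw9-203 had no reads in control replicate 2 and were higher in every irradiated library. Sub1-203, of a transcriptional coactivator gene, had 29.0 and 25.3 TPM in control and 90.5, 109 and 74.1 TPM in irradiated cells. Rps20-201, of a small ribosomal subunit protein gene, had 150 and 154 TPM against 357, 436 and 319 TPM, while its share of the gene was 67.4% and 68.1% against 72.9%, 77.2% and 73.2%.

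Members were grouped by features of their structure that the rule did not use. The summed TPM of members with under 25% own bases was 0.662 of the control level after irradiation. This ratio was 0.547 at 25 to 50%, 0.361 at 50 to 75% and 0.346 at 75% or more. The proportion of members with a lower share of their gene was 64.5%, 79.5%, 86.4% and 88.0% in the same groups. Among the 371 members with fewer than 50 own bases it was 57.4%, and the ratio was 0.683. The members with the largest proportion of own bases were furthest below the controls. Over members with a mean of at least 10 reads in each group, the ratios were 0.720, 0.639, 0.419 and 0.398 in the same order.

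Intron length and base composition also went with the ratio. Members whose shortest whole intron was in the group of the shortest (up to 136 bases) had a ratio of 0.721, against 0.603 in the middle group and 0.413 in the group above 443 bases. The percentage with a lower share was 69.9%, 80.7% and 85.0%. By intron GC content, the ratio was 0.514 in the group below 46.0%, 0.512 in the middle group and 0.759 in the group above 54.6%, with 84.7%, 80.7% and 70.1% of members at a lower share. With at least 10 reads in each group, the ratios were 0.777, 0.653 and 0.435 by intron length and 0.546, 0.555 and 0.818 by GC content. The number of whole introns gave no such order, with 0.544 for the 4291 members with none, 0.660 for 1 and 0.469 for 2 or more. The groups were not tested against each other.

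**Figure D4:**
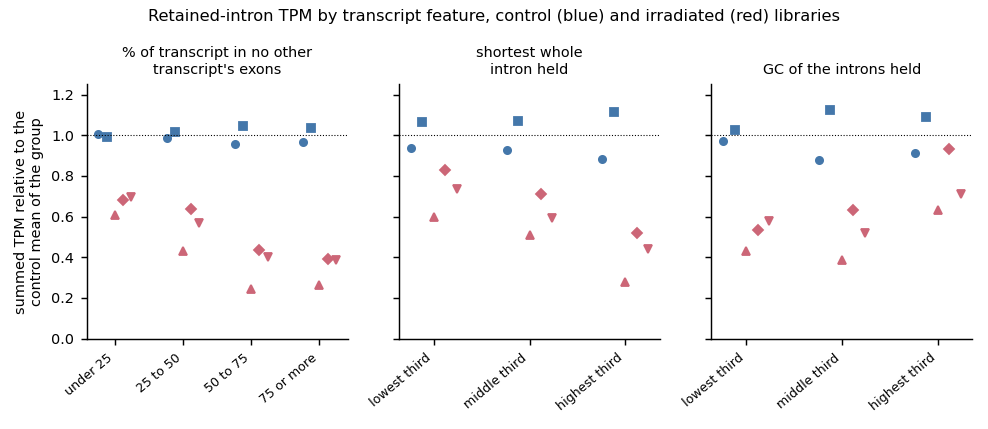
Summed TPM of retained-intron transcripts in each library relative to the control mean. Groups are by the percent of own bases (outside exons of the gene's transcripts of other types), the length of the shortest whole intron and intron GC content. Blue points are the 2 control and red points the 3 irradiated libraries. Irradiated values are lowest for members with the most own bases and the longest introns, at ratios of 0.346 and 0.413, and are higher for GC-rich introns, at 0.759, where the groups overlap.

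Length and position of a member also went with the ratio of summed TPM, but position hardly went with the share of the gene. Members under 1000 bases had a ratio of 0.605, those of 1000 to under 3000 bases 0.522 and those of 3000 bases or more 0.393, or 0.711, 0.565 and 0.414 with at least 10 reads in each group. By position, the ratio was 0.615 in the first part of the gene, 0.596 in the middle and 0.476 in the last. The share was lower for 83.4% of members as long as or longer than the main coding transcript, and for 73.6% of those shorter than 0.5 of it.

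Most members had a lower share whether the parent gene itself was higher or lower. In genes with a lower mean TPM after irradiation, 78.1% of 5310 members had a lower share, with a median log2 change of -1.02. In genes with a higher mean TPM, 75.8% of 1797 members had a lower share, with a median of -1.16. The summed TPM of members was 0.407 of the control level in the first set and 0.981 in the second. The TPM of a parent gene includes its members, so the grouping is not independent of these ratios.

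Members with a U12-type motif were few. Of 27, 25 had a lower share of their gene, with a median log2 change of -1.14. Derl2-205, of a gene of the endoplasmic reticulum degradation machinery, with both of its motif-bearing introns shown above, held 6.46% and 10.2% in control and 1.47%, 2.18% and 1.83% in irradiated cells. Prim1-202, of the DNA primase small subunit gene, held 2.48% and 7.09% against 0.956%, 3.45% and 1.98%, and its groups overlapped. E2f6-202, of a repressive E2F factor gene, held 19.2% and 24.3% against 15.98%, 20.4% and 18.3%, also with overlap. Rfx5-216 and Tcea2-206 were the 2 with a higher share. Tcea2-206, of a transcription elongation factor gene, held 2.59% and 10.8% against 19.8%, 15.3% and 31.1%. These members were chosen after their values were seen, and the smallest adjusted p among those named here was 0.309 (limma).

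The share was next summed over all retained-intron transcripts of each gene. In 4515 genes with enough reads on both kinds of transcript, the median gene had 9.93% and 11.5% of its TPM on retained-intron transcripts in control and 2.99%, 5.84% and 5.47% in irradiated cells. The log2 ratio was lower in 3680 genes (81.5%), with a median of -1.11. Genes could meet the read limit through their control level alone, and a limit in each group was not applied to genes. No gene passed an adjusted p under 0.05 with limma (0% of all), the smallest being 0.0623. At an unadjusted p under 0.05, 994 genes (22.0% of those tested) were lower and 36 (0.797%) were higher. Every irradiated library was below both controls in 2165 genes (48.0%) and above both in 120 (2.66%). Leaving out a library gave 489 to 857 genes lower and 28 to 201 higher at an unadjusted p under 0.05, with 489 without control replicate 2, 682 and 201 without control replicate 3.

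The same measure was made for the other types. For transcripts typed as nonsense_mediated_decay, 48.4% of 1948 genes were below zero, with a median log2 change of 0.03. For processed transcripts, 64.5% of 2264 genes were below zero, with a median of -0.48. At an adjusted p under 0.05 (limma), 1 gene was higher and 0 were lower for nonsense_mediated_decay, and 9 were higher and 3 lower for processed transcripts. At an unadjusted p under 0.05, 94 genes were lower and 93 higher for the first type, and 242 lower and 65 higher for the second. The difference between the types was not tested.

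The gene lists are described against the shares given above, with every irradiated library below both controls for 20.2% of all transcripts and 45.1% of members, and above both for 15.6% and 3.77%. A percentage near 45.1% is that of the members as a class. Genes of the splicing machinery come first. SR proteins bind exons and promote splicing, and their list with kinases and regulators held 66 members. Of these, 56 (84.8%) had a lower share, 42 (63.6%) lay below both controls in every irradiated library and 3 (4.55%) above both, and none passed the adjusted threshold. Members took 16.8% and 18% of the TPM of these genes in control and 6.75%, 12.03% and 10.3% in irradiated cells. The median log2 change was -1.39, against -1.05 over all members.

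The genes of this list differed among themselves. Clk1, of a kinase of SR proteins, had 42.7% and 30.5% of its TPM on retained-intron transcripts in control and 8.59%, 13.7% and 15.0% in irradiated cells. Clk4 had 61.4% and 43.1% against 17.5%, 28.7% and 35.9%, and Srsf11 had 38.2% and 27.2% against 3.75%, 11.4% and 9.13%. In each of these 3 genes all irradiated libraries were lower. Srsf1 had 34.0% and 27.8% against 30.8%, 30.1% and 25.7%, and Srpk1 had 30.0% and 37.4% against 30.5%, 33.4% and 38.4%, so that neither was apart between the groups. Rsrp1-204, the member of this list with the most reads after Ddx39b-204, had 1368 and 3251 reads in control and 362, 2918 and 1391 in irradiated libraries, with overlap. The 5 genes named here by their share were chosen after their values were seen.

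Other splicing factors had similar values. Of 62 members in the list of hnRNP proteins and other splicing regulators, 55 (88.7%) had a lower share, 39 (62.9%) lay below both controls and none above both, and Ptbp1-214 alone passed the threshold. Members took 7.62% and 8.88% of the TPM of these genes in control and 2.43%, 4.14% and 4.58% in irradiated cells. No member of the other lists passed it. Rbm5-219, in the gene of the splicing regulator RBM5 and holding the introns of 2783 and 472 bases shown above, had 14.8 and 17.4 TPM in control and 1.17, 5.50 and 4.46 TPM in irradiated cells. Its share was 17.4% and 16.5% against 2.60%, 8.31% and 7.29%, a log2 change of -1.78 with an SE of 0.68 (limma adjusted p = 0.369). It was below the controls in all irradiated libraries.

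The spliceosome itself was covered by 47 members in genes of snRNP proteins. A lower share was found for 42 (89.4%), and 25 (53.2%) lay below both controls and none above both. Members took 15.0% and 11.9% of these genes' TPM in control and 5.37%, 5.75% and 6.96% in irradiated cells. Snrnp70-216, of the gene of the U1 snRNP 70 kDa protein, had a share of 3.88% and 6.23% against 1.16%, 4.55% and 2.48%, with overlap. Summed over all retained-intron transcripts, Snrnp70 had 33.8% and 35.7% in control and 3.97%, 12.2% and 12.2% in irradiated cells. U2af2, which recognises the 3′ end of introns, had 23.7% and 15.99% against 1.82%, 2.97% and 2.03%. Its log2 change was -3.40 with an SE of 0.63 (limma adjusted p = 0.1745). The gene sums of Snrnp70 and U2af2 were chosen after their values were seen.

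**Figure D5:**
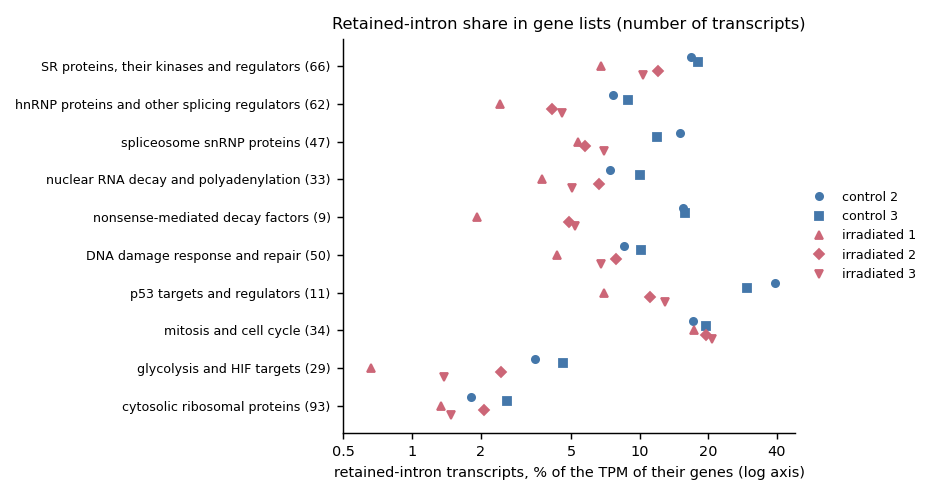
Percent of the TPM of the genes of each list that fell on their retained-intron transcripts, 1 point per library on a log axis, with the number of transcripts in brackets. Controls are blue and irradiated libraries red. Controls lie above all irradiated libraries in the splicing, decay, DNA damage, p53 and glycolysis lists, and the groups overlap for mitosis and for ribosomal proteins.

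RNA decay factors were covered by 2 lists. Of 9 members in genes of nonsense-mediated decay factors, 8 had a lower share, 8 (88.9%) lay below both controls in every irradiated library and none above both, and their genes had 15.5% and 15.8% on members in control and 1.92%, 4.90% and 5.21% in irradiated cells. Smg5-203 and Smg5-204, in the gene of an adaptor of this pathway, had shares of 6.04% and 7.22% and of 6.92% and 8.07% in control. In irradiated cells they had 1.58%, 3.76% and 3.46%, and 0.598%, 1.59% and 2.98%. Of 33 members in genes of nuclear RNA decay and polyadenylation, 25 (75.8%) had a lower share, 17 (51.5%) lay below both controls and 1 (3.03%) above both, with 7.40% and 10.1% of their genes' TPM in control and 3.73%, 6.62% and 5.02% in irradiated cells. Cpsf4-203, of a cleavage and polyadenylation factor gene, held 17.8% and 13.6% in control and 2.17%, 6.71% and 3.66% in irradiated cells. Zcchc8-207, of a gene of the nuclear exosome targeting complex, held 9.60% and 21.1% against 28.9%, 23.9% and 15.5%, with overlap.

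Genes of the response to irradiation were mixed. In the list of DNA damage response and repair, 33 of 50 members (66%) had a lower share, 19 (38%) lay below both controls and 4 (8%) above both, against 77.5%, 45.1% and 3.77% of all members. Their genes had 8.56% and 10.1% on members in control and 4.34%, 7.83% and 6.75% in irradiated cells. Atrip-205, in the gene of the partner of the ATR kinase, went the other way, with 7.50% and 8.49% in control and 10.3%, 22.7% and 13.9% in irradiated cells, but it had only 96 own bases. Summed over all its retained-intron transcripts, Atrip had 20.6% and 27.0% in control and 11.4%, 27.9% and 17.9% in irradiated cells, with overlap. The log2 change of this sum was -0.46 with an SE of 0.64. The sum was added after its values were seen. Ercc1-202, in the gene of a nucleotide excision repair nuclease subunit, overlapped between groups, with 17.4% and 23.7% against 19.7%, 28.9% and 40.6%. At the gene level Brca2 had 26.0% and 27.4% on retained-intron transcripts in control and 48.3%, 53.7% and 43.5% in irradiated cells, while Atm had 58.9% and 55.1% against 32.4%, 35.96% and 9.65%. Brca2 and Atm were chosen after their values were seen, and their adjusted p was 0.183 and 0.203 (limma).

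The p53 list covers targets and regulators of a factor that KP1 cells lack in functional form. Of its 11 members, 10 had a lower share and 5 (45.5%) lay below both controls, as of all members. Their genes had 39.1% and 29.6% on members in control and 6.98%, 11.1% and 12.9% in irradiated cells. Mdm4-211, of the gene of a p53 inhibitor, had 25.8 and 23.4 TPM in control and 0.969, 6.61 and 2.95 TPM in irradiated cells. Its share was 19.5% and 18.2% against 5.64%, 20.6% and 7.65% and overlapped, so that level and share did not give the same order. Summed over all its retained-intron transcripts, Mdm4 had 68.8% and 61.2% in control and 18.45%, 44.4% and 36.3% in irradiated cells. The adjusted p of this sum was 0.181 (limma), and the sum was added after its values were seen. Eda2r-203, of a death receptor gene, had a share of 42.0% and 35.6% against 30.1%, 27.0% and 30.8%.

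Cell cycle, glycolysis and ribosomal genes completed the lists. In the mitosis and cell cycle list, 29 of 34 members had a lower share, and 18 (52.9%) lay below both controls and 3 (8.82%) above both. The genes together had 17.1% and 19.5% on members in control and 17.2%, 19.5% and 20.8% in irradiated cells, with overlap. Cdk4, of a kinase that drives entry into S phase, had a pair of its members among those with the most reads on this list. Cdk4-209 had a share of 33.1% and 29.1% against 23.0%, 22.4% and 26.5%, and Cdk4-206 had 10.4% and 9.89% against 14.5%, 12.9% and 15.3%, with 25 and 16 own bases. In the list of glycolysis and HIF targets, 24 of 29 had a lower share, and 17 (58.6%) lay below both controls and none above both, with 3.47% and 4.59% of their genes' TPM in control and 0.658%, 2.45% and 1.38% in irradiated cells. Pkm-205, of the pyruvate kinase gene, held 2.33% and 2.88% against 0.237%, 0.632% and 0.678%, and Pfkp-212, of a phosphofructokinase gene, held 5.30% and 8.88% against 2.18%, 3.78% and 3.57%. Of 93 members in genes of cytosolic ribosomal proteins, 73 (78.5%) had a lower share, and 40 (43%) lay below both controls and 4 (4.3%) above both, near the values of all members. They took 1.81% and 2.62% of the TPM of these genes in control and 1.34%, 2.07% and 1.49% in irradiated cells, with overlap.

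Noncoding host genes could hardly be followed, since only 1 of 26 genes on the list of small nucleolar RNA host genes and nuclear noncoding RNAs was in the files. Its member Snhg11-202 had 16.4 and 45.6 reads in control and 2.32, 6.755 and 11.9 reads in irradiated libraries. It held 33.8% and 56.1% of its gene in control and 10.9%, 10.97% and 38.7% in irradiated cells.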

How the data were processed

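Bulk RNA of 2 control and 3 irradiated KP1 cultures had been sequenced. The authors quantified reads with Salmon (0.8.2 in the submitters' notes) at default settings on mm10. Per the file headers, the deposited tables hold the estimated count of reads (NumReads), which need not be whole, and TPM for each transcript. The deposited length and effective length are in bases. How RNA was selected for the libraries and the annotation release are not given in the sources used here. Single-cell data belong to the same study and were not used here.

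Transcripts were matched without their version to GENCODE M21, which named 99.69% of them, and those left out carried 0.116 to 0.128% of reads. The 7119 members, the gene lists and the features were chosen with earlier results of these data known. NumReads were rounded for edgeR 4.0.16 (mean of at least 10 reads, TMM, quasi-likelihood test). Shares were tested with limma 3.58.1 in R 4.3.3 on log2 ratios of TPM plus a pseudocount of 0.1, which understates changes of low transcripts. Both p were adjusted by Benjamini-Hochberg over all transcripts. DESeq2 1.42.0, other normalizations, filters and pseudocounts, a length offset (spline with 5 degrees of freedom), diffSpliceDGE, a replicate block and each library left out were alternatives, and a limit of 10 reads in each group was added after seeing the data. Scripts were tested on simulated data with known answers. Splice sites were compared for 7103 members whose length equals that of the annotation. Python 3.11.15 with pandas 2.3.3 and matplotlib 3.10.9 made the tables and plots.

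Depth was 21185956 to 31036317 reads. The floor of 3 reads covers counting error only. Named transcripts were, by rule, the 10 members with the most reads, the 5 with the smallest p for the share and the 3 with the smallest p for the level in each direction (groups without overlap, mean of at least 50 reads), the 2 with the most reads per list and the 2 on each side of the read limit, with others marked where they appear. One transcript that this rule names is not reported here.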

Additional observations from a re-analysis of the deposited data

How the results depend on the processing

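The difference in percent of reads on members kept its sign under every alternative. It went from -0.921 to -0.375 percentage points with a mean of at least 100 reads, and ranged from -1.05 to -0.793 when 1 library was left out. The difference in percent of TPM went from -1.91 to -2.42 with no filter, to -0.523 with at least 100 reads and to -1.28 with at least 10 reads in each group, a limit chosen after seeing the data, and ranged from -2.02 to -1.73 without 1 library. These alternatives change which members are summed. By mean reads, the ratio of summed TPM was 0.366 at 10 to under 20 reads, 0.425 at 20 to under 50 and 0.476 at 50 to under 100. It was 0.682 at 100 to under 1000 and 0.944 at 1000 or more. In that last group, 12 of 30 members had a lower share, with a median log2 change of 0.07. The standardised difference ranged from -1.38 to -1.14.

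Counts of single calls depended on the tool and filter. For the level, edgeR called no member. DESeq2 called 550 members lower and 115 higher, where it called 2354 and 4086 of all 38590 transcripts. With no filter, edgeR called 38 of 16453 members lower and 17 higher, against 286 and 1094 of all 71554 transcripts. For the share, 3 lower and 1 higher became 3 lower and 13 higher with a pseudocount of 0.01 TPM. Over all 36145 transcripts that setting called 48 lower and 144 higher. No member was called in either direction with a pseudocount of 1 TPM or with NumReads in place of TPM. None was called with limits of 50 or 1 mean reads, or with at least 10 reads in each group. diffSpliceDGE called 25 of 7029 members lower and 0 higher, where it called 121 and 50 of all 34048 transcripts. The 25 lower were thus near the proportion over all transcripts. Leaving out 1 library gave 0 to 63 lower and 0 to 102 higher, all of them without control replicate 3. With either control replicate left out, the lone control is assumed to vary like the other group. Among genes, 1 (Sin3a) was called lower with a limit of 50 reads. The cause of these differences was not tested.

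The median change of members was below zero in every fit. For the share it was -1.05, and -0.41 with a pseudocount of 1 TPM, -1.24 to -0.76 without 1 library. For the level it was -1.33 to -0.86 without 1 library, and for genes -1.30 to -0.85. Of 45 named members under 9 settings each, Tmed10-202 went from -0.166 to 0.0743 without control replicate 3, and Tmed7-202 from 0.0843 to -0.0722 without control replicate 2 (0.2408 without control replicate 3).

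Replicate numbers 2 and 3 are shared by both groups. Over transcripts, the difference between replicates 2 and 3 in control did not correlate positively with that in irradiated libraries (correlation -0.0579 for the level and -0.028 for the share). The labels do not say whether libraries of the same number were handled together, and this correlation cannot decide it. With the replicate block, to which irradiated replicate 1 adds nothing, 0 members and 0 genes were called in either direction. At an unadjusted p under 0.05 (limma), 294 of 7107 members were lower and 62 higher in share. Over all 36145 transcripts, 1115 were lower and 1154 higher. The medians of members were -0.76 for the share and -0.84 for the level.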
